A study of Mus musculus with 4 samples.

Results

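The miR-467 and miR-669 miRNAs of the mouse Sfmbt2 gene were examined in bronchoalveolar stem cells (BASCs) with and without c-Myc depletion. The members were chosen by name. They are the mouse assays named miR-467 or miR-669 in the table of TaqMan low density arrays, without the star strands. This gave 6 assays of the 517 for mouse miRNAs: miR-467a, miR-467b, miR-467c, miR-467d, miR-467e and miR-669a. Of these, 5 gave a signal in all 4 samples and 1, miR-467e, gave none in any sample. No member had an adjusted p below 0.05 after c-Myc depletion.

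The study asked how c-Myc, a transcription factor that drives proliferation, acts in BASCs, which are progenitor cells at the junction of bronchioles and alveoli. The cells were sorted from lungs of ICR mice aged 4 to 6 weeks as Sca-1 and CD34 positive and CD31 and CD45 negative. After sorting they were plated on irradiated mouse embryonic fibroblasts. For later passages the paper names collagen-coated dishes in its Results and such fibroblasts in its Methods. The control group (replicates 1 and 2) is labelled only as control BASCs. The paper calls the comparison cells both control and wild type, and does not settle whether they carried a control vector. For the c-Myc depleted group (replicates 1 and 2) the paper describes lentiviral shRNA against c-Myc and stable lines made by puromycin selection. It does not say whether these lines or freshly infected cells were profiled. c-Myc itself is not on these cards, and its depletion was not checked here. Which shRNA each sample carried is not given in the labels. Nothing in the labels says that replicates were separate cultures, so p-values here measure only the spread between these samples, which may be technical.

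Sfmbt2 encodes a Polycomb-related protein and is an imprinted gene, expressed in the mouse from the paternal copy, above all in placenta. One of its introns carries a large cluster of rodent miRNA genes that arose by tandem repetition of a short unit. The cluster is known for its activity in embryonic stem cells and in the trophoblast, where it is needed for normal growth of the placenta. miR-467 has been linked to low production of thrombospondin-1, an inhibitor of vessel growth. miR-669a has been linked to repression of MyoD, the master factor of skeletal muscle, in heart progenitors.

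In the RefSeq annotation of assembly GRCm38.p6, 72 miRNA genes lie inside Sfmbt2 on chromosome 2, and all of them belong to the miR-297, miR-466, miR-467 or miR-669 series. Another 10 genes of these series lie elsewhere in the genome. miR-467a has 10 gene copies in the cluster and miR-669a has 12. By contrast, miR-467b, miR-467c, miR-467d and miR-467e have 1 copy each. The copies alternate along the intron, a miR-467 gene being followed by a miR-466 gene and a miR-669 gene through the middle of the array. An assay for miR-467a or miR-669a therefore reads the output of many gene copies together. Mature miRNAs of this family differ at few positions, and how far 1 assay also detects its relatives was not tested. RefSeq gives 2 promoter windows of 300 bases for Sfmbt2, each running from 250 bases before a start to 50 after it. The letters CACGTG, the E-box motif bound by Myc with Max, read the same on both strands and were in neither window. They were in 7.15% of all 32851 windows of that length. For its own regulated genes the paper scanned a longer stretch, reaching through the first exon, with a weight matrix of the motif. Sites outside these windows and other forms of the motif were not searched here.

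**Figure D1:**
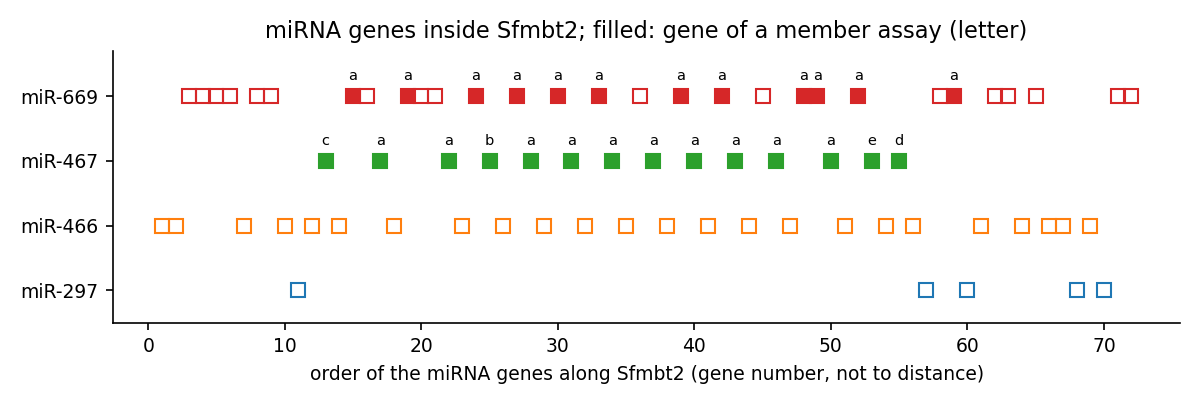
Order of the 72 miRNA genes inside Sfmbt2, from gene 1 to gene 72 along the x axis (order only, not distance), with 1 row per miRNA number. Filled squares are genes whose mature miRNA is a member assay, with the letter of that miRNA. A reader should see 10 filled copies of miR-467a and 12 of miR-669a, against 1 copy each of miR-467b, c, d and e.

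The readout of a well is its CT, the number of PCR cycles needed before the product crosses a set threshold. Less RNA takes more cycles, and with each cycle the product at most doubles. All members are on card A of the 2 cards, with 1 well each, so no member had duplicate wells to compare. To obtain ΔCT, the average of the 4 wells for U6, a small nuclear RNA serving as reference, on card A was subtracted. Control replicates 1 and 2 had a U6 CT of 18.89 and 19.11 on this card, and depleted replicates 1 and 2 had 18.86 and 18.84. A ceiling of 35 was placed on CT, which wells without a CT also received. Of the 517 mouse miRNAs, 263 fell below this ceiling in 1 sample or more and 189 in every sample. The wells with a CT numbered 334 to 351 of 768 per sample.

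The labelled cell type is an epithelial progenitor. Of 8 miRNAs typical of epithelium, only miR-200c was below 35 in all 4 samples, and miR-203 and miR-205 gave no value below 35 in any sample. miR-200b, miR-429 and miR-141 were below 35 in control replicate 1 alone. Of 5 miRNAs typical of fibroblasts and mesenchyme, 4 were below 35 in all samples, with CT from 24.78 to 27.01. This list is also that of the fibroblasts used in culture, whose share in the samples was not tested. None of 13 miRNAs typical of embryonic stem cells (the miR-290 and miR-302 clusters) was below 35 in any sample. Below 35 in all samples were also 2 of 2 endothelial, 1 of 6 blood and 1 of 4 muscle miRNAs, while miR-1 and miR-133b of muscle gave no value below 35 anywhere. On the log2 scale relative to U6, the summed level of the epithelial list ranged from -12.7 to -11.2 among controls and from -14.5 to -13.1 after depletion. For the mesenchymal list the ranges were -4.86 to -4.66 and -4.38 to -4.32, for the endothelial list -9.86 to -9.68 and -12.0 to -11.8, for the blood list -14.2 to -11.7 and -10.14 to -10.1, and for the muscle list -14.4 to -13.9 and -14.4 to -11.8. In the blood list the higher sum came with miR-486, at the ceiling in both controls and at 29.02 and 29.15 in depleted replicates 1 and 2, while the log2 changes of miR-142-3p, miR-142-5p, miR-451, miR-150 and miR-223 were -0.74, -1.64, -1.53, -0.13 and 0.30. The part of these differences in the values of the members was not tested. In such bulk samples, fewer cells of a type and less RNA per cell cannot be told apart.

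miR-467a was the most abundant member. Control replicate 1 had a CT of 30.77 and control replicate 2 one of 29.95, while depleted replicates 1 and 2 gave 29.91 and 29.98. Control replicate 1 stood below the other 3 samples in level, and those 3 lay within less than 0.1 cycles of each other. By mean ΔCT, miR-467a ranked 72 among the 130 card A miRNAs below 35 in all samples, counted from the highest level. The formula used to estimate copies per cell applies 1 calibration to all assays. It gave 36.5 ± 14.2 copies for controls against 46.6 ± 1.61 for depleted BASCs (SD, n = 2 each).

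miR-467b came next. The controls read 31.96 and 30.75 cycles (replicates 1 and 2) and the depleted samples 30.46 and 30.98. As for miR-467a, control replicate 1 had the lowest level. Depleted replicate 1 had the highest, and depleted replicate 2 fell between the controls. Estimated copies per cell came to 19.2 ± 10.7 for controls against 27.7 ± 7.05 after depletion (SD, n = 2 each).

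miR-467c was the steadiest member. CT values of 31.78 and 31.98 were read for control replicates 1 and 2, and of 31.99 and 31.83 for depleted replicates 1 and 2. Before U6 was subtracted the groups overlapped. The copy estimate was 12.28 ± 1.16 for controls against 12.01 ± 0.941 after depletion (SD, n = 2 each).

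miR-669a was the only miR-669 assay on the cards. Its controls stood at 32.96 and 31.79 cycles (replicates 1 and 2), its depleted samples at 31.97 and 31.69. Here too control replicate 1 had the lowest level of the 4 samples. The copy estimate was 9.44 ± 5.08 for controls against 12.8 ± 1.76 after depletion (SD, n = 2 each).

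miR-467d was the lowest detected member. Control replicate 1 gave 34.07 cycles and control replicate 2 gave 34.99, just under the ceiling. Depleted replicates 1 and 2 gave 33.36 and 32.96. Both depleted samples were above both controls in level. It ranked 126 of 130 on card A, and its copy estimate was 2.08 ± 0.903 for controls against 5.12 ± 0.981 after depletion (SD, n = 2 each). miR-467e, encoded beside miR-467d in the cluster with only a miR-466 gene between them, gave no CT in any of the 4 samples. A level below the reach of the assay and an assay that does not work cannot be told apart for it.

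**Figure D2:**
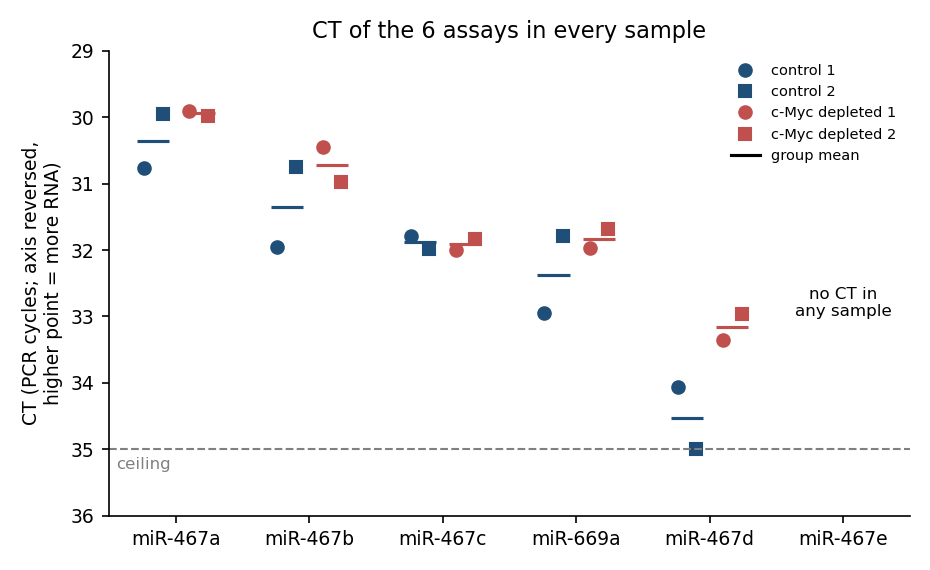
CT of the 6 assays (y axis, PCR cycles, reversed so that a higher point means more RNA) in each control (blue) and c-Myc depleted sample (red), with circles for replicate 1, squares for replicate 2 and lines for group means. Control replicate 1 lies apart from the other 3 samples for miR-467a, miR-467b and miR-669a, and both depleted samples of miR-467d, at 33.36 and 32.96, lie above its controls. The dashed line is the ceiling of 35.

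Ordered by mean ΔCT over the 4 samples, the members were miR-467a (11.2), miR-467b (12.1), miR-467c (12.97), miR-669a (13.18) and miR-467d (14.9). miR-467a was ahead of miR-467b in 4 of 4 samples, by 0.886 ± 0.274 cycles (SD over 4 samples). miR-467b was ahead of miR-467c in 3 of 4, by 0.861 ± 0.743 cycles, the exception being control replicate 1. miR-467c and miR-669a did not differ beyond their spread, with a difference of 0.203 ± 0.649 cycles. miR-467d followed miR-669a in 4 of 4 samples, by 1.74 ± 0.976 cycles. The efficiencies of the assays are not known, so this order describes signals. The number of gene copies did not follow the same order, since miR-669a with 12 copies gave less signal than single-copy miR-467b in every sample, by 0.704 to 1.51 cycles.

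To ask whether the members depend on c-Myc, the mean ΔCT after depletion was subtracted from the mean ΔCT of controls. A log2 change above 0 thus means a higher level after depletion. They were tested with limma over all 263 detected mouse miRNAs. The estimate was positive for 4 of the 5 detected members and negative for miR-467c, where 49.8% of all tested miRNAs had a positive estimate. That share covers both cards. On card A, which holds all members, the median log2 change of the tested miRNAs was itself positive, at 0.28. Among the 5, 0 had an adjusted p below 0.05, where 0.76% of all tested miRNAs did. At an unadjusted p below 0.05 there was 1 of 5 (miR-467d) with limma, where 25.5% of all tested miRNAs did and 16.3% did so with a higher level after depletion. A one-way analysis of each miRNA alone gave 0 of 5. The share of all tested miRNAs is not given for that analysis, so this count has no background to be read against. For a single miRNA the smallest p that a two-sided exact permutation of these samples allows is 0.333.

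The largest value among the members was that of miR-467d. Its ΔCT of 15.2 (control replicate 1) and 15.9 (control replicate 2) stood against 14.5 and 14.1 (depleted replicates 1 and 2). The log2 change was 1.22 (standard error 0.35, 95% interval 0.18 to 2.26, adjusted p = 0.155 from limma), a 2.32-fold difference. A fold above 2 in this direction was found for 12.9% of all tested miRNAs. The log2 change stayed positive under every scaling tried, from 0.71 with each card centred on its median to 1.37 with no reference. With 1 sample left out at a time it ranged from 0.86 without control replicate 2 to 1.57 without control replicate 1. Its adjusted p, from limma or the one-way analysis, was between 0.0601 and 0.630 over the alternatives that kept all 4 samples. Control replicate 2, the sample whose CT nearly reached the ceiling, had the lowest level.

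For miR-467c the ΔCT was 12.89 and 12.87 among controls (replicates 1 and 2) against 13.13 and 12.99 after depletion. The log2 change was -0.18 (standard error 0.19, 95% interval -0.74 to 0.38, adjusted p = 0.628 from limma). It is the member with the narrowest interval, which reaches from a 0.598-fold to a 1.30-fold ratio of depleted over control. In ΔCT the groups of miR-467c and miR-467d did not overlap, which makes 2 of 5 members, miR-467d higher and miR-467c lower after depletion. The same was true of 58.6% of all tested miRNAs, with 26.6% higher and 31.9% lower. Under 7 scalings, U6 of the same card included, the groups stayed apart in 6 for miR-467c and in 5 for miR-467d.

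The log2 change of miR-467b was 0.48 (standard error 0.60, 95% interval -1.28 to 2.25, adjusted p = 0.708 from limma) and turned to -0.021 with each card centred on its median. That of miR-669a was 0.39 (standard error 0.56, 95% interval -1.24 to 2.03, adjusted p = 0.728 from limma) and turned to -0.11 under the same centring. For miR-467a it was 0.26 (standard error 0.43, 95% interval -1.01 to 1.53, adjusted p = 0.749 from limma), and the sign turned negative under 5 of 6 other scalings. These intervals hold both a 2-fold rise and a 2-fold fall for miR-467b, miR-669a and miR-467a, so neither was excluded by these samples. All 3 signs rested on control replicate 1. Without it the values were -0.25 for miR-467a, -0.23 for miR-467b and -0.29 for miR-669a, and without control replicate 2 they were 0.78, 1.19 and 1.08.

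**Figure D3:**
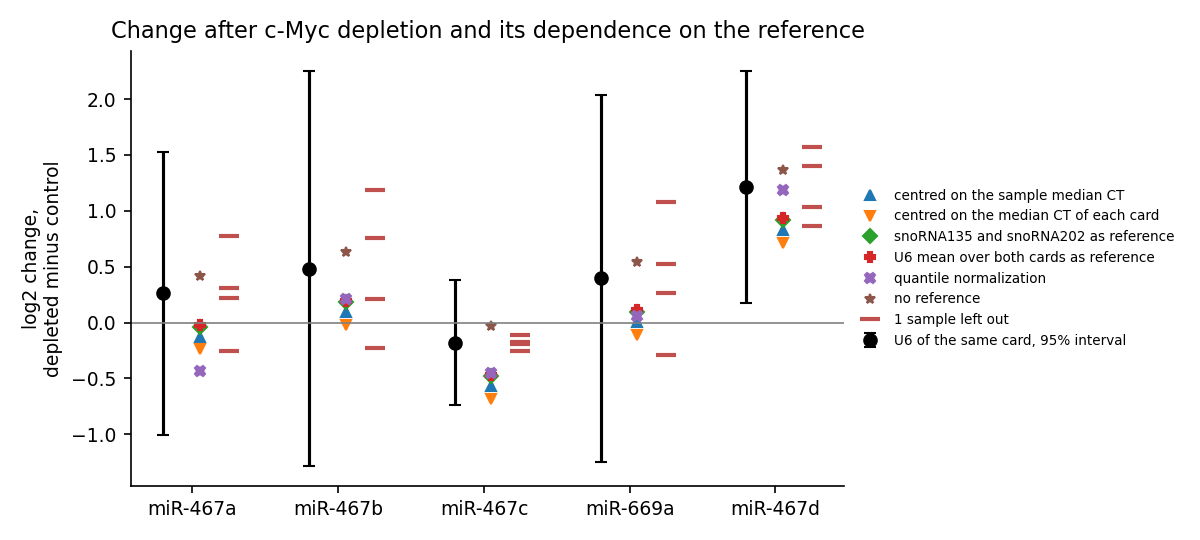
Log2 change after c-Myc depletion (y axis, depleted minus control) of the 5 detected members. Black circles and bars are the value with U6 of the same card and its 95% interval from limma, coloured symbols the value under 6 other scalings, and red dashes the values with 1 sample left out. Only the interval of miR-467d lies above 0, and the values of miR-467a, miR-467b and miR-669a fall on both sides of 0.

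The spread between the controls differed among the members. In ΔCT, control replicate 1 was higher than control replicate 2 by 1.03 for miR-467a, 1.42 for miR-467b and 1.37 for miR-669a, while the difference was 0.017 for miR-467c and -0.71 for miR-467d. The median size of that difference over the 130 card A miRNAs was 0.301. A difference as large in size as that of miR-467b was found for 5 of the 130, itself included, and one as large as that of miR-467a for 10 of them. Between the depleted samples the sizes were smaller for the same members, 0.0928 for miR-467a, 0.548 for miR-467b and 0.261 for miR-669a, against a median of 0.258. miR-467a, miR-467b and miR-669a thus had their lowest level in the same sample, and miR-467c and miR-467d did not share it. Control replicate 1 was also the only sample with miR-200b, miR-429, miR-141, miR-142-3p, miR-142-5p, miR-451 and miR-133a below 35. These come from the epithelial, blood and muscle lists. miR-200a and miR-200c of the epithelial list also had their lowest CT in control replicate 1, at 31.80 and 32.99. Others of these lists differed. miR-375 was at the ceiling in control replicate 1, and at 33.39 and 32.35 in control replicate 2 and depleted replicate 1. miR-486 was at the ceiling in both controls, and miR-150, miR-206 and miR-223 had their lowest CT in depleted replicate 2. Of all mouse miRNAs, 229 were below 35 in control replicate 1, 222 in control replicate 2 and 224 in each depleted sample. The part of these differences in the values of the members was not tested.

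**Figure D4:**
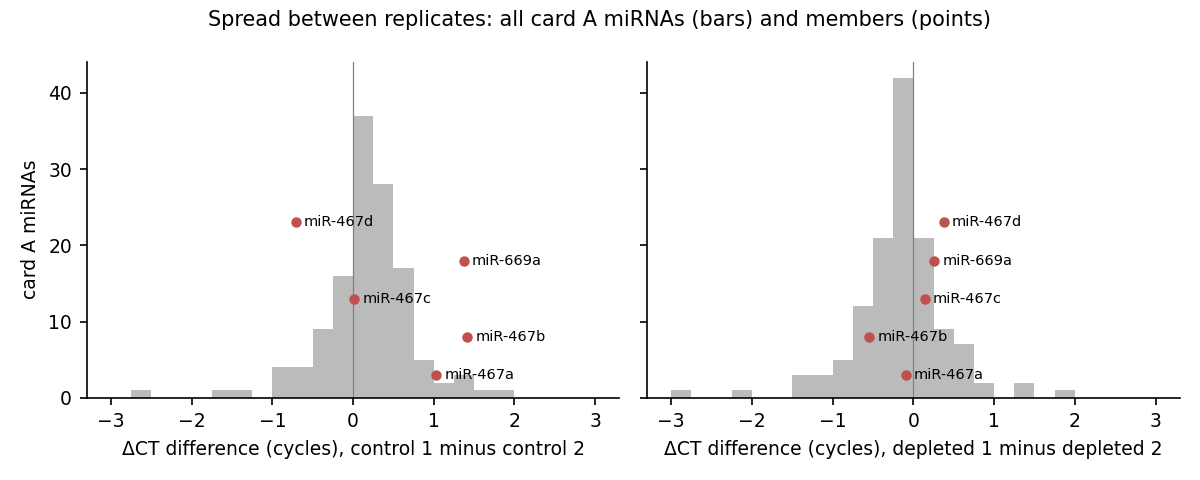
Difference in ΔCT (x axis, cycles) between the 2 controls (left) and between the 2 depleted samples (right). Grey bars count the 130 card A miRNAs below 35 in all samples (y axis), with values beyond 3 cycles drawn in the end bars. Red points mark the members on the x axis at arbitrary heights. miR-467a, miR-467b and miR-669a lie at 1.03 to 1.42 on the left and near the bulk on the right.

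The miRNA pattern closest to miR-467a was sought among 181 mouse miRNAs outside the cluster and below 35 in all samples, as the mean absolute difference of ΔCT after each miRNA was centred on its mean over the 4 samples. The closest were miR-22 (0.0633 cycles), miR-25 (0.0782) and miR-129-3p (0.123). Within the family the distance was 0.174 for miR-669a, 0.210 for miR-467b, 0.365 for miR-467c and 0.675 for miR-467d. Only 8 of the 181 outside miRNAs were closer to miR-467a than miR-669a was, while 159 were closer than miR-467d. All rest on 4 samples and, for the family, on 1 card with a shared U6 value.

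None of the members could enter the study's own selection, which required a lowest ΔCT below 10. The lowest ΔCT of any member was 10.8, for miR-467a in control replicate 2. That limit was passed by 80 mouse miRNAs, of which 20% met the remaining criteria of a fold above 2 and an unadjusted p below 0.05 in limma.

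A median over the 5 detected members gave a log2 change of 0.39. The same median was -0.018 over all 263 tested miRNAs and 0.41 over the 130 of card A, the card of the members. Among the 51 other card A miRNAs of similar mean CT it was 0.45, and 0 of these 51 had an adjusted p below 0.05 from limma. With each card centred on its median, the median of the members was -0.11.

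The cluster was also probed by 12 other mouse assays, those for the star strands of miR-467 and for miR-466 and miR-297, of which some genes lie elsewhere. Of these, 3 were below 35 in all samples, 1 in a single sample and 8 gave no CT. All 6 mouse assays for miR-466 were among the 8, although 24 miR-466 genes lie inside Sfmbt2. The 2 rat assays for miR-466 on the cards gave no CT either. miR-297b-5p had a CT of 31.1 in control replicate 1 and none elsewhere.

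Both arms of 2 hairpins were detected. miR-467a*, the other strand of the miR-467a hairpin, lies on card B and gave 29.87 and 29.98 cycles for control replicates 1 and 2 against 28.98 and 29.31 for depleted replicates 1 and 2. Both depleted samples were lower in CT, but U6 of card B moved the same way, from 19.55 and 19.85 to 18.89 and 19.07. Relative to it the log2 change was 0.063 (standard error 0.20, adjusted p = 0.858 from limma). Control replicate 1 did not stand apart for this strand, with a ΔCT of 10.3 against 10.1 in control replicate 2.

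miR-467b* gave 32.97 and 32.45 cycles for the controls (replicates 1 and 2) against 31.81 and 31.97 after depletion. Its log2 change relative to U6 was 0.095 (standard error 0.36, adjusted p = 0.874 from limma). In ΔCT, control replicate 1 had the lowest level of both miR-467a* and miR-467b*, by a smaller margin for miR-467a*. The ΔCT of miR-467b* there was 13.4, against 12.6 in control replicate 2 and 12.9 in both depleted samples. For miR-467a* it was 10.3, against 10.1 in control replicate 2 and 10.1 and 10.2 in depleted replicates 1 and 2. Between the strands of a hairpin, ΔCT of miR-467a minus that of miR-467a* was 1.03 ± 0.366 (SD over 4 samples) and above 0 in 4 of 4. In raw CT control replicate 2 ran the other way, with 29.95 for miR-467a and 29.98 for miR-467a*. For the second hairpin, ΔCT of miR-467b minus that of miR-467b* was -0.853 ± 0.403, below 0 in 4 of 4 samples. The strands were read on different cards with their own U6 wells. miR-467e*, like miR-467e, gave no CT in any sample.

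miR-297a*, the only cluster assay with 2 wells that gave a signal, read 31.72 and 31.39 cycles for control replicate 1, 31.54 and 31.99 for control replicate 2, 31.80 and 31.04 for depleted replicate 1, and 31.98 and 32.33 for depleted replicate 2. Wells of the same sample thus lay nearly as far apart as wells of different samples. Its estimate of -0.85 (log2, standard error 0.28, limma adjusted p = 0.188) was -0.13 before U6 of card B was subtracted.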

How the data were processed

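MiRNAs were measured in 2 control and 2 c-Myc depleted samples on TaqMan Rodent MicroRNA cards A and B. The authors deposited raw CT values from RQ manager, with no ceiling, reference or averaging applied. Partek 6.4 is named in the submitters' processing notes. CT has the unit of PCR cycles, so depth is not defined and the number of samples limits the precision. Here CT was capped at 35, the value also given to wells without a CT, wells of an assay were averaged, and the mean U6 CT of the card was subtracted. limma 3.58.1 in R 4.3.3 (lmFit, eBayes) tested minus ΔCT over mouse miRNAs below 35 in at least 1 sample, with Benjamini-Hochberg adjustment. Tables were made in Python 3.11.15 with pandas 2.3.3, scipy 1.17.1 and numpy 2.4.6, and the limma code was tested on simulated data. The members, marker lists and other cluster assays were chosen with earlier results of these data known. All members are named. Alternatives covered the reference, wells, ceiling, filters, test, replicate block and samples left out. The replicate numbers do not pair the samples by any label. The mRNA arrays of the study were not analysed here. The RefSeq annotation served for names, gene copies, their order and the promoter windows.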

Additional observations from a re-analysis of the deposited data

How the results depend on the processing

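Under every alternative that kept all 4 samples, the number of members with an adjusted p below 0.05 stayed at 0, with limma or the one-way analysis. With the study's ΔCT limit as filter no member was fitted, so that 0 was fixed in advance. The number past the study's criteria also stayed at 0, since no member met its ΔCT limit. The signs of miR-467c and miR-467d held under every alternative that gave them a value (a ceiling of 32 left miR-467d out). With 5 scalings the log2 change of miR-467a turned negative: -0.13 centred on the sample median, -0.24 centred on the median of each card, -0.038 with snoRNA135 and snoRNA202, -0.024 with U6 of both cards and -0.44 with quantile normalization. Centring on the median of each card turned miR-467b to -0.021 and miR-669a to -0.11, and a ceiling of 32 turned miR-669a to -0.083. The median over members, 0.39 with U6 of the same card, was 0.0061, -0.11, 0.094, 0.11 and 0.058 under those 5 scalings in the same order, and 0.089 with the ceiling of 32, where 4 members remained. The median of all tested miRNAs moved from -0.018 to -0.17, -0.13 and 0.37 when centred on the sample median, on each card or with no reference. With 1 sample left out, the range was -0.25 to 0.78 for miR-467a, -0.23 to 1.19 for miR-467b, -0.25 to -0.11 for miR-467c, 0.86 to 1.57 for miR-467d, -0.29 to 1.08 for miR-669a and -0.23 to 0.86 for the median over members, the ends being set by leaving out control replicate 1 or 2 for all but miR-467c. The lone sample of a group was then assumed to vary like the other group. Over all tested miRNAs, limma called 2 of 263, against 12 of 189 when a CT below 35 was required in all samples, 26 of 80 with the study's ΔCT limit, 31 of 192 with a ceiling of 32 and 10 of 517 with no filter. Of 263 it called 21 with no reference, 18 with a variance trend and 0 with the replicate block, and a one-way analysis called 4. The remaining settings called 0 to 4. Same-numbered samples did not deviate together (correlation -0.013 over 189 miRNAs), and the replicate block left miR-467d at a log2 change of 1.22 with an adjusted p of 0.371 from limma. Members have 1 well each, so the rules for duplicate wells could reach them only through the pooled spread, and no difference between wells of a member could be computed. CT values near 35, such as those of miR-467d, are close to the limit of the assay.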
